A study of Homo sapiens with 10 samples.

Results

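The genes described here are 112 pseudogenes of ribosomal proteins that gave reads in U2OS cells, a human osteosarcoma line. They were chosen from a table of 63187 genes by symbol, as RPL or RPS with a number and an optional letter followed by P and a number, and by a floor of 60 counts summed over 6 RNA-seq libraries. The pattern and the floor together took 113 genes. The 113th, RPS19BP1, is a protein-coding gene whose symbol happens to match, and it was kept apart. The table held 1494 pseudogenes with such a symbol, of which 586 had any count, so the values below describe the minority that passed the floor. A pseudogene could pass that floor through a single group of libraries. The choice used measured counts, so the level of a member is a description.

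A ribosome is built from ribosomal RNA and ribosomal proteins, named RPL in the large subunit and RPS in the small. The messenger RNAs of these proteins are short and very abundant, and in the germ line of ancestral mammals they were often copied back into the genome by reverse transcription. Such a copy, a processed pseudogene, has no introns and is usually a single block of sequence that no longer codes for a full protein. It lies wherever it was inserted, often in an intron of another gene, and may be read from a nearby promoter or as part of that gene's transcript. Because the copy resembles its parent, a short read can match both.

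Each of the 3 groups had 2 libraries: heat-shocked U2OS cells with knockdown of YTHDC1, heat-shocked U2OS cells given the control reagent, and unheated U2OS cells given the control reagent. YTHDC1 is a nuclear protein that binds N6-methyladenosine, a modified base of RNA. The study centred on genes that join broken DNA ends, and it asked what heat shock and then the loss of YTHDC1 do to RNA levels. The labels name the reagents as sh in one field and as si in another, and for the heat shock neither temperature nor time is stated. All cells carried a control or a YTHDC1 reagent, so no library came from cells without one. The labels do not state whether the libraries within a group are separate cultures. The p-values therefore speak to the spread of these libraries alone, and that spread may be technical.

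The libraries held between 13252370 and 15500743 counts. YTHDC1 stood at 121 and 118 CPM (the count of a gene scaled by the TMM-normalised size of its library) in the knockdown, 268 and 258 CPM in the heat-shocked controls and 213 and 224 CPM in unheated controls, so the knockdown libraries matched their label. The markers fixed for U2OS as a mesenchymal line were all present, with VIM between 1130 and 1683 CPM and COL1A1 between 1323 and 1932 CPM. Of the blood cell markers, HBB and CD3E were at 0 in every library, and PTPRC was at most 0.696 CPM. The globin gene HBA2 had 5 and 23 counts in the knockdown, 14 and 88 in the heat-shocked controls and 0 in both unheated controls, and its near-identical neighbour HBA1 had 1 and 4 in the knockdown, 4 and 2 in the heat-shocked controls and 0 in both unheated controls. HBA2 reached 6.31 CPM, and its part in the results below was not tested. Among epithelial markers CLDN4 was highest, at 41.5 to 69.4 CPM, and EPCAM lay between 4.66 and 20.5 CPM.

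The 112 members came from 53 parent genes, with 80 from the large and 32 from the small subunit. A single block of sequence was annotated for 108 of them, as the name processed pseudogene implies, and their median length was 555 bases. RefSeq lists 105 as pseudogenes and 5 as transcribed pseudogenes, and it places the other 2 (RPL23AP7 and RPL21P118) elsewhere than the table does. Members lay on 22 chromosomes, most often on chromosome 1, with 13, and chromosome 3, with 12. A member was counted as inside another gene where it overlapped, wholly or in part, a longer protein-coding or long noncoding RNA gene. By RefSeq positions, or the interval in the table for RPL23AP7 and RPL21P118, 26 lay inside another gene on the same strand and 30 inside one on the opposite strand. A further 3 lay inside a gene whose strand was not known. The other 53 overlapped no such gene and are called outside other genes. Of these, 2 (RPL23AP7 and RPS27AP5) overlapped an entry of another kind or one no longer than themselves. No sequence of a member was used here.

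Members took a small share of the RNA, slightly larger in every heated library than in both unheated ones. They held 0.245% and 0.232% of the counts in the knockdown, 0.230% and 0.238% in the heat-shocked controls and 0.228% and 0.227% in unheated controls. Their summed level was 2484 and 2347 CPM in the knockdown and 2347 and 2434 CPM in the heat-shocked controls. In unheated controls it was 2230 and 2197 CPM. For every 100 counts of the 79 cytosolic ribosomal protein genes, the members together had 3.71 and 3.52 counts in the knockdown, 3.49 and 3.65 in the heat-shocked controls and 3.62 and 3.64 in unheated controls. The ranges of this ratio overlapped between all groups. Every member had at least 1 count in each library.

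A few members held most of the reads. The pair with the highest counts, RPS2P5 and RPL36AP37, took between 36.7% and 38.6% of member counts per library, and the top 10 took between 66.1% and 69.0%. At the other end, 25 members had fewer than 120 counts over all 6 libraries. Just inside the floor were RPL23AP74 with 62 counts and RPS15AP10 and RPL35AP21 with 60 each, and just outside it were RPL7AP50 with 59, RPL21P134 with 57 and RPL13AP22 with 54.

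RPS2P5 (ENSG00000240342), a copy of the small-subunit gene RPS2, lies on chromosome 12 at 118246061 to 118247002 (RefSeq position, GRCh38) inside TAOK3, a kinase gene, on the opposite strand. Its level was 580 and 523 CPM in the knockdown, 538 and 519 CPM in the heat-shocked controls and 493 and 506 CPM in unheated controls. The knockdown overlapped the heat-shocked controls and lay above the unheated ones, with a log2 fold change of 0.14 ± 0.05 against unheated controls (edgeR adjusted p = 0.0135), a call that was lost without knockdown library 1, unheated control library 1 or unheated control library 2, and with scaling by library size alone. Per kilobase of deposited length, the level of RPS2P5 was 599 CPM and that of RPS2 itself 765 CPM, averaged over the 6 libraries. The deposited length was 879 bases for RPS2P5 and 2388 bases for RPS2, and without correction for length RPS2P5 had 28.8% of the CPM of RPS2. Parents had a median deposited length of 2941 bases, so per-kilobase values lower parents relative to their copies.

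RPL36AP37 (ENSG00000244398), a copy of the large-subunit gene RPL36A, lies on chromosome 11 at 16974646 to 16975044 inside PLEKHA7, a cell junction gene, on the same strand. Its level was 378 and 341 CPM in the knockdown, 323 and 394 CPM in the heat-shocked controls and 341 and 327 CPM in unheated controls, and all 3 ranges overlapped. Per kilobase it had the highest level of any member, at 1092 CPM, against 3.96 CPM for RPL36A. The deposited length was 321 bases for RPL36AP37 and 3965 bases for RPL36A, which overlaps the read-through gene RPL36A-HNRNPH2. PLEKHA7 stood between 17.9 and 25.4 CPM in all 6 libraries.

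RPL22P1 (ENSG00000213178), on chromosome 3 at 169483418 to 169484020, lies inside MECOM, a transcription factor gene, on the same strand. Its per-kilobase level was 308 CPM, against 8.30 CPM for its parent RPL22. RPS28P7, a copy of the small-subunit gene RPS28, stood at 334 CPM per kilobase, against 34.9 CPM for RPS28. The deposited lengths were 410 bases for RPL22P1 and 4665 for RPL22, and 210 bases for RPS28P7 and 2119 for RPS28. Without correction for length, RPL22P1 had 327% of the CPM of RPL22, and RPS28P7 had 94.8% of that of RPS28. The other 6 of the top 10 (RPL3P4, RPS7P1, RPL13AP5, RPS11P5, RPS2P46 and RPL10P9) lay between 79.6 and 279 CPM per kilobase. Over all members the per-kilobase level had a median of 6.97 CPM and a range of 0.883 to 1092 CPM.

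As plain counts, with no correction for length, 75 of the 112 members drew under 1% of the counts of their parent gene and 91 drew under 5%. The 3 that drew over 100% were RPL36AP37, RPL22P1 and RPL17P6, the last a copy of RPL17, which overlaps the read-through gene RPL17-C18orf32. How the authors treated reads that match several places was not stated, so reads of a parent and its copies may have been assigned to either.

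**Figure D1:**
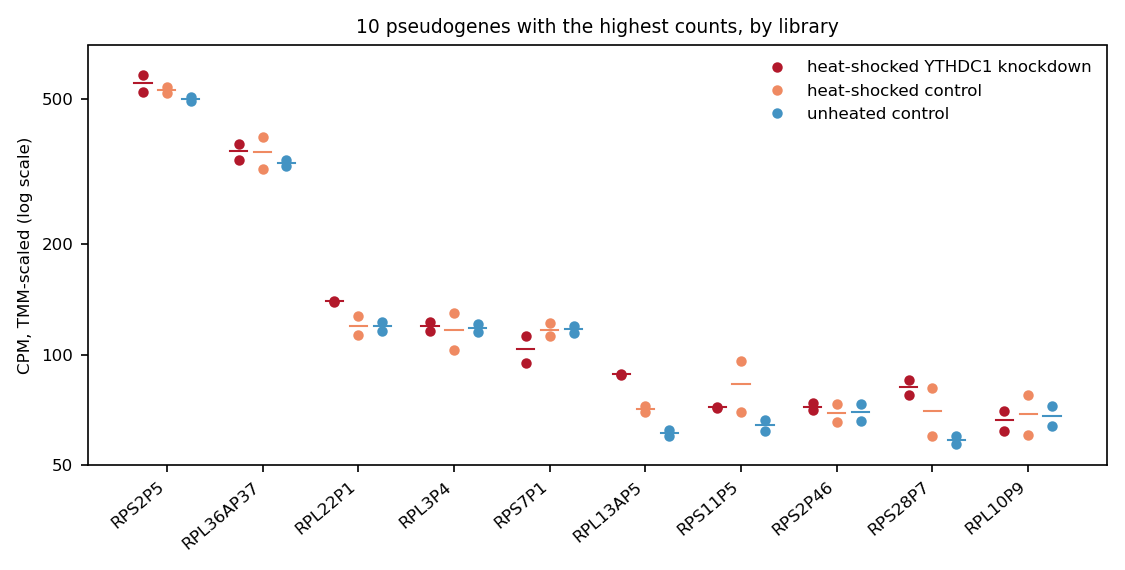
Level of the 10 members with the highest counts (horizontal) in CPM on a log scale (vertical), as points for each library and a bar for the mean of the 2 libraries, with the heat-shocked YTHDC1 knockdown left, the heat-shocked control in the middle and the unheated control right. RPS2P5 and RPL36AP37 stand above the rest, and RPL13AP5 has 3 groups that do not overlap, at 88.1 and 88.4 CPM in the knockdown, 72.2 and 69.8 CPM in the heat-shocked controls and 59.8 and 62.3 CPM in unheated controls.

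Few members were called as changed in heat-shocked controls against unheated controls, and all of those called were higher. Of the 112, 13 rose and 0 fell at an adjusted p of 0.05 (edgeR, quasi-likelihood test, Benjamini-Hochberg adjustment over 16424 genes), against a background of 21.0% of all tested genes called higher and 24.0% called lower. The members' share of 11.6% called in either direction was below the 45.0% of all genes. At an unadjusted p under 0.05 the counts were 17 higher and 0 lower, and DESeq2 called 9 higher and 0 lower. The 2 heat-shocked controls lay wholly above the unheated ones for 39 members and wholly below for 6, where 73.0% of all tested genes had groups that did not overlap. These are bulk libraries, in which fewer cells with a transcript and less of it per cell cannot be told apart. The largest increases belonged to RPS3AP38, RPL17P50, RPL7AP16 and RPL36AP54, all of them low in unheated cells. Heated libraries outnumber unheated ones in the floor's sum, so a member low in unheated cells could pass it through heated libraries. How far that choice shaped these rises, and the lack of falls among the calls, was not tested.

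The median log2 fold change of the members in heat was 0.19, with an interquartile range of 0.01 to 0.33, beside a median of -0.03 for all tested genes and 0.14 for the 79 ribosomal protein genes. Of those 79 genes, 44 were called higher and 1 lower. Their median standard error was 0.05 on the log2 scale, beside 0.23 for the members, so a member that was not called may still have changed. Fitted changes were above 0 in 85 of the 112 members. Precision followed the counts: members with at least 600 counts had a median standard error (SE) of 0.11 on the log2 scale and those under 120 counts one of 0.46. Among genes with at least 600 counts, 11.9% of 42 members were called in either direction, beside 54.1% of all such genes, and below 600 counts the shares were 11.4% of 70 members and 27.3% of all such genes.

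RPS3AP38 (ENSG00000226318), a copy of the small-subunit gene RPS3A, had the largest increase. It lies on chromosome 10 at 67960685 to 67961494, inside HERC4, a ubiquitin ligase gene, on the same strand. It had 28 and 34 counts in the knockdown, 65 and 73 counts in the heat-shocked controls and 4 and 5 counts in unheated controls. The 3 groups did not overlap, and the knockdown lay between the controls. The log2 fold change in heat was 4.12 ± 0.35 (SE, n = 2 per group, edgeR adjusted p = 5.28e-10), and in the knockdown against heat-shocked controls it was -1.24 ± 0.24 (edgeR adjusted p = 9.26e-05). These comparisons share the heat-shocked control libraries.

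The host gene HERC4 and the parent gene RPS3A moved far less than RPS3AP38. HERC4 stood at 85.7 and 80.3 CPM in the knockdown, 99.0 and 103 CPM in the heat-shocked controls and 56.9 and 61.6 CPM in unheated controls, so its groups had the same order as those of RPS3AP38. Its log2 fold change was 0.77 ± 0.06 in heat and -0.28 ± 0.06 in the knockdown. The parent RPS3A had a log2 fold change of 0.14 ± 0.04 in heat, and the other 4 copies of RPS3A were not called in heat. Whether reads of RPS3AP38 came from HERC4 transcripts was not tested.

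RPL7AP16 (ENSG00000234329), a copy of the large-subunit gene RPL7A, lies on chromosome 1 at 45650978 to 45651850 inside GPBP1L1 on the same strand. It had 113 and 114 counts in the knockdown, 117 and 151 counts in the heat-shocked controls and 29 and 23 counts in unheated controls. Both heated groups stood apart from the unheated one, with a log2 fold change in heat of 2.58 ± 0.20 (edgeR adjusted p = 1.16e-10). GPBP1L1 rose in heat by a log2 fold change of 0.27 ± 0.05, and RPL7A had 0.03 ± 0.04 and was not called. A second member inside GPBP1L1 on the same strand, RPS15AP10, was not called in heat, at 0.22 ± 0.50.

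RPL17P50 (ENSG00000213700), a copy of RPL17 annotated in more than 1 block, lies on chromosome 10 at 73005793 to 73006613. It starts 604 bases beyond the end of P4HA1, which encodes a subunit of a collagen-modifying enzyme, on the same strand. It had 13 and 17 counts in the knockdown, 21 and 23 in the heat-shocked controls and 4 and 4 in unheated controls, with no overlap between groups. The log2 fold change in heat was 2.64 ± 0.48 (edgeR adjusted p = 5.83e-05). P4HA1 rose as well, by 1.00 ± 0.05, to 164 and 166 CPM in heat-shocked controls, against 79.8 and 84.9 CPM in unheated controls.

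RPL36AP54 (ENSG00000226107), the second copy of RPL36A among the members, had 13 and 5 counts in the knockdown, 17 and 23 in the heat-shocked controls and 3 and 8 in unheated controls. Its log2 fold change in heat was 2.06 ± 0.51 (edgeR adjusted p = 0.0018), whereas the much higher RPL36AP37 had 0.10 ± 0.10 and was not called. For RPL36AP54 the value was 1.51 without unheated control library 1 and 2.91 without unheated control library 2, and it was called in both. RPL32P16, inside the folate enzyme gene MTHFD1L on the same strand, had 18 and 17 counts in the knockdown, 17 and 16 in the heat-shocked controls and 6 and 7 in unheated controls. Its log2 fold change was 1.55 ± 0.45, while MTHFD1L had -0.10 ± 0.05 and was not called. The call of RPL32P16 was lost with DESeq2 and without unheated control library 1.

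RPL24P2 (ENSG00000235065), a copy of RPL24 on chromosome 20 outside other genes, had 11 and 18 counts in the knockdown, 32 and 32 in the heat-shocked controls and 19 and 11 in unheated controls. The heat-shocked controls stood above both other groups, which overlapped each other. The log2 fold change was 1.31 ± 0.35 in heat (edgeR adjusted p = 0.00328) and -1.22 ± 0.35 in the knockdown against heat-shocked controls (edgeR adjusted p = 0.00471), 2 comparisons that share the heat-shocked controls. The heat call was lost without unheated control library 2, and the knockdown call was lost with DESeq2 and without knockdown library 1.

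RPL13P8 (ENSG00000241634), a copy of RPL13, lies inside the myosin gene MYH15 on the same strand. It had 37 and 26 counts in the knockdown, 43 and 49 in the heat-shocked controls and 23 and 25 in unheated controls. Its groups did not overlap, and the log2 fold change in heat was 1.16 ± 0.27 (edgeR adjusted p = 0.00114). MYH15 had a log2 fold change of 0.02 ± 0.10 in heat and was not called.

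The other 6 members called higher in heat changed less, with log2 fold changes of 0.81 for RPL7AP62, 0.34 for RPS18P5, 0.34 for RPL14P1, 0.30 for RPL29P4, 0.29 for RPL26P19 and 0.22 for RPL13AP5. RPL14P1 (ENSG00000139239), a copy of RPL14 outside other genes, had 545 and 501 counts in the knockdown, 486 and 501 in the heat-shocked controls and 458 and 455 in unheated controls, from a larger library in the unheated group. On the scaled level it stood at 38.3 and 34.9 CPM in the knockdown, 37.4 and 35.9 CPM in the heat-shocked controls and 28.9 and 29.2 CPM in unheated controls. The calls of RPL26P19, RPS18P5 and RPL7AP62 were lost with DESeq2, and without unheated control library 1 these calls and those of RPL13AP5, RPL29P4 and RPL32P16 were lost. That library's removal left 7 members called higher, among the 13 found with all libraries.

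Of members inside a gene on the same strand, 5 of 26 were called in heat, beside 2 of 30 on the opposite strand and 6 of 53 outside other genes. These shares of 19.2%, 6.67% and 11.3% were all below the 45.0% of all tested genes called in either direction. The median log2 fold changes of these classes were 0.24, 0.16 and 0.18, and the difference between classes was not tested. Of the 7 members that rose more than 2-fold, 4 lay inside a gene on the same strand (RPS3AP38, RPL7AP16, RPL32P16 and RPL13P8) and 3 lay outside genes (RPL17P50, RPL36AP54 and RPL24P2).

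The 99 members not called in heat ranged from -0.95 to 1.11 in log2 fold change, apart from RPS3AP5. RPS3AP5 (ENSG00000178429), a copy of RPS3A on chromosome 10, had 14 and 19 counts in the knockdown, 17 and 26 in the heat-shocked controls and 12 and 176 in unheated controls. A single unheated library, number 2, stood apart from the other 5. Its log2 fold change in heat was -1.91 ± 1.51 and was not called (edgeR adjusted p = 0.403), but without unheated control library 1 it was called lower.

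**Figure D2:**
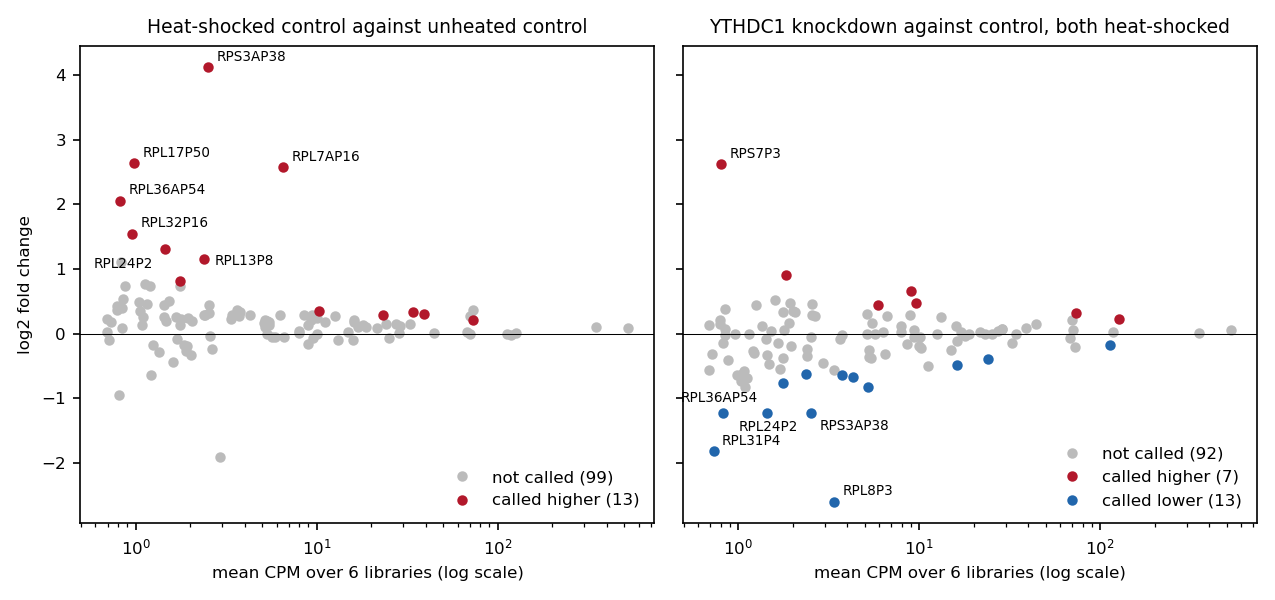
Log2 fold change of each of the 112 members (vertical) against its mean CPM over the 6 libraries on a log scale (horizontal), for heat-shocked over unheated controls (left panel) and for the YTHDC1 knockdown over the control, both heat-shocked (right panel). Red points were called higher and blue points lower at an edgeR adjusted p of 0.05, and called members past 2-fold are named. In the left panel the 13 called members all lie above 0, and in the right panel 7 lie above and 13 below.

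In the knockdown, members changed in both directions. Against heat-shocked controls, 7 of the 112 were higher and 13 lower (edgeR adjusted p of 0.05), beside 28.1% of all tested genes called higher and 28.1% called lower. The 17.9% of members called either way was below the 56.2% of all genes. With at least 600 counts the shares were 16.7% of members and 66.2% of all such genes, and below 600 counts 18.6% and 36.6%. The largest changes were a fall of RPL8P3, a fall of RPL31P4 and a rise of RPS7P3. The median log2 fold change was -0.02, with an interquartile range of -0.35 to 0.12, beside -0.01 for all genes and 0.00 for ribosomal protein genes, of which 14 rose and 15 fell. DESeq2 called 4 members higher and 5 lower in this comparison, so its count was less than that of edgeR in both directions. The knockdown libraries lay wholly above the heat-shocked controls for 18 members and wholly below for 31, where 76.7% of all tested genes had groups that did not overlap.

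RPL8P3 (ENSG00000240950), a copy of the large-subunit gene RPL8, lies on chromosome 3 at 142827061 to 142827728 inside PCOLCE2, which encodes an enhancer of collagen processing, on the same strand. It had 10 and 14 counts in the knockdown, 81 and 57 counts in the heat-shocked controls and 69 and 63 counts in unheated controls. Both knockdown libraries lay far below all 4 control libraries. The log2 fold change was -2.60 ± 0.30 against heat-shocked controls (edgeR adjusted p = 7.68e-08), with a 95% interval of -3.23 to -1.99, and -2.31 ± 0.30 against unheated controls.

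The parent gene moved with its copy. RPL8, a protein of the large subunit, stood at 442 and 470 CPM in the knockdown, 1686 and 1757 CPM in the heat-shocked controls and 1581 and 1508 CPM in unheated controls, a log2 fold change of -1.92 ± 0.05 against heat-shocked controls (edgeR adjusted p = 2.18e-19). PCOLCE2, in contrast, rose by 0.68 ± 0.07, to 50.1 and 49.4 CPM in the knockdown, against 29.4 and 32.5 CPM in heat-shocked controls. RPL8P3 drew 0.274% as many scaled counts as RPL8. Whether some of its reads came from RPL8 transcripts was not tested.

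A similar pair was RPL31P4 (ENSG00000213598) and its parent RPL31, also of the large subunit. RPL31P4 had 3 and 5 counts in the knockdown, 21 and 6 in the heat-shocked controls and 10 and 18 in unheated controls. The log2 fold change was -1.81 ± 0.66 against heat-shocked controls (edgeR adjusted p = 0.0212), and it was lost with DESeq2, without knockdown library 1 and without heat-shocked control library 1, where the value was -0.60. RPL31 stood at 281 and 282 CPM in the knockdown, 1176 and 1015 CPM in the heat-shocked controls and 881 and 899 CPM in unheated controls, a log2 fold change of -1.96 ± 0.06 (edgeR adjusted p = 1.48e-17). RPL8 and RPL31 were the 2 ribosomal protein genes of the 79 that fell more than 2-fold.

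The 3 copies of RPL7, a large-subunit gene, all had negative changes in the knockdown, and 2 of them were called. RPL7P1 (ENSG00000214485), inside the receptor gene CSF1R on the opposite strand, stood at 20.8 and 20.5 CPM in the knockdown, 26.1 and 28.1 CPM in the heat-shocked controls and 25.7 and 23.4 CPM in unheated controls, a log2 fold change of -0.40 ± 0.09 against heat-shocked controls. CSF1R itself was at most 1.90 CPM in any library. RPL7P9 (ENSG00000137970), outside other genes, stood at 13.5 and 13.0 CPM in the knockdown, 18.7 and 18.6 CPM in the heat-shocked controls and 16.2 and 16.9 CPM in unheated controls, a log2 fold change of -0.49 ± 0.11. In both, the knockdown libraries were below all control libraries. RPL7 fell by 0.39 on the log2 scale, to 489 and 461 CPM in the knockdown, against 653 and 590.5 CPM in heat-shocked controls. The third copy, RPL7P23, had -0.30 ± 0.43 and was not called.

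Copies of RPL13A, a large-subunit gene, moved in both directions. RPL13A rose by a log2 fold change of 0.50 ± 0.05, to 4354 and 4573 CPM in the knockdown, against 3191 and 3126 CPM in heat-shocked controls. RPL13AP5 (ENSG00000236552), on chromosome 10 at 96750266 to 96750923 and outside other genes, had 1252 and 1270 counts in the knockdown, 937 and 974 in the heat-shocked controls and 948 and 970 in unheated controls. Its scaled levels did not overlap between any of the groups, and it rose by 0.31 ± 0.06 against heat-shocked controls (edgeR adjusted p = 4.17e-05). RPL13AP25 rose too, by 0.47 ± 0.14, a call that was lost with DESeq2 and without heat-shocked control library 2.

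RPL13AP20 (ENSG00000234498), a transcribed pseudogene outside other genes, went the other way than its parent. It had 45 and 58 counts in the knockdown, 73 and 100 in the heat-shocked controls and 78 and 97 in unheated controls, a log2 fold change of -0.83 ± 0.20 against heat-shocked controls (edgeR adjusted p = 0.00122). Its knockdown libraries were below all 4 control libraries. The other 2 copies, RPL13AP26 and RPL13AP24, were not called, at -0.37 ± 0.30 and -0.14 ± 0.43.

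RPS7P3 (ENSG00000231940), a copy of the small-subunit gene RPS7, had the largest rise. It lies on chromosome 1 at 233288826 to 233289491 inside PCNX2 on the same strand. It had 22 and 25 counts in the knockdown, 4 and 3 in the heat-shocked controls and 9 and 7 in unheated controls, and the knockdown was above both control groups. The log2 fold change was 2.62 ± 0.50 against heat-shocked controls (edgeR adjusted p = 7.2e-05). PCNX2 had -0.10 ± 0.07 and RPS7 had -0.05 ± 0.05, and neither was called. RPS7P1, a far more abundant copy of RPS7, fell by 0.18 ± 0.07 to 112 and 94.6 CPM in the knockdown, against 122 and 113 CPM in heat-shocked controls, a call that was lost with DESeq2 and without heat-shocked control library 1 or knockdown library 2.

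The remaining rises were those of RPL22P1 at 0.22 ± 0.06, RPL5P4 at 0.44 ± 0.17, RPL23AP7 at 0.65 ± 0.16 and RPL29P19 at 0.91 ± 0.33. The calls of RPL5P4 and RPL29P19 were lost with DESeq2, and each also when some single libraries were left out. That of RPL22P1 was lost without heat-shocked control library 1. RPL22P1 stood at 139 and 140 CPM in the knockdown, 113 and 127 CPM in the heat-shocked controls and 123 and 116 CPM in unheated controls. Its host gene MECOM fell in heat by 1.18 on the log2 scale, to 11.0 and 11.8 CPM in heat-shocked controls, against 25.5 and 26.3 CPM in unheated controls, while RPL22P1 had a log2 fold change in heat of 0.01 ± 0.06. RPL23AP7 was annotated over 5709 bases in more than 1 block, against a median of 555 bases for the members, and RefSeq gives that symbol to another chromosome.

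The remaining falls were those of RPL36AP54 at -1.22 ± 0.46, RPL7AP62 at -0.77 ± 0.30, RPS27AP5 at -0.67 ± 0.23, RPL13P8 at -0.63 ± 0.26 and RPL3P7 at -0.63 ± 0.26. All 5 calls were lost with DESeq2, and each also when some single libraries were left out. RPL36AP54 stood at -2.06 without knockdown library 1 and at -0.69, not called, without knockdown library 2. RPL3P7 ranged from -1.01 to -0.15 over the alternatives. Among these RPL13P8 lies inside MYH15, which fell by 1.32 on the log2 scale. The 92 members not called ranged from -0.83 to 0.53 in log2 fold change.

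**Figure D3:**
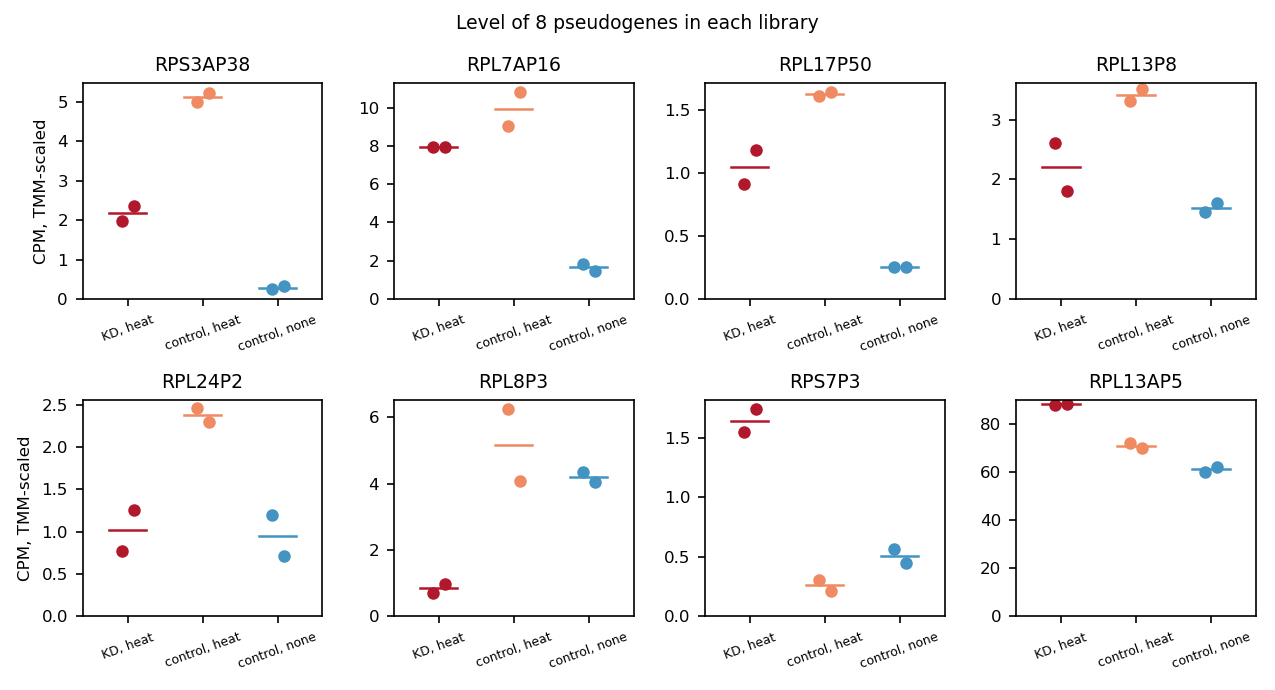
Level of 8 members in each library in CPM (vertical, from 0), with the heat-shocked YTHDC1 knockdown left (KD, heat), the heat-shocked control in the middle (control, heat) and the unheated control right (control, none). Points are the libraries and bars the mean of 2. RPS3AP38, RPL7AP16 and RPL17P50 are lowest in the unheated control, RPL8P3 is low in the knockdown at 0.704 and 0.975 CPM, and RPS7P3 is high there at 1.55 and 1.74 CPM.

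The knockdown was also set against unheated controls, which combines the reagent and the heat. Here 19 members were higher and 7 lower (edgeR adjusted p of 0.05), beside 31.4% and 31.9% of all tested genes. The share called either way was 23.2%, beside 63.3% of all genes, and the median log2 fold change was 0.13 beside -0.01. With at least 600 counts the shares were 31% of members and 72.2% of all such genes, and below 600 counts 18.6% and 46%. The largest rises were 2.88 ± 0.41 for RPS3AP38, 2.26 ± 0.20 for RPL7AP16, 2.01 ± 0.52 for RPL17P50, 1.67 ± 0.41 for RPS7P3 and 1.55 ± 0.45 for RPL32P16. Among called members the largest falls were -2.31 ± 0.30 for RPL8P3, -1.64 ± 0.66 for RPL31P4 and -0.94 ± 0.38 for RPL7P23. RPS3AP5, with its single high unheated library, had -2.37 and was not called. Groups did not overlap for 47 members that were above and 14 that were below, where this held for 80.6% of all tested genes. This comparison shares a group of libraries with each of the others. DESeq2 called 11 members higher and 1 lower, that one being RPL8P3.

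Across members, the changes were set beside those of the parents. In the knockdown against heat-shocked controls, Pearson's r between the log2 fold change of a member and that of its parent was 0.48 over 112 members and 0.65 over the 42 with at least 600 counts, with Spearman's rho of 0.33 and 0.60. In heat it was 0.06 over all 112 and 0.42 over the 42, with Spearman's rho of 0.25 and 0.49. In the knockdown against unheated controls it was 0.48 and 0.68, with Spearman's rho of 0.43 and 0.64. In the knockdown against heat-shocked controls the parents RPL8 and RPL31 stood at -1.92 and -1.96, and all other parents between -0.39 and 0.50. RPL8P3 and RPL31P4 therefore weigh heavily on Pearson's r over all 112 members, and r without them was not computed. The part of reads shared between a parent and its copy was not tested. Differences between the comparisons were not tested. These are descriptions, since the points share 6 libraries and several members share a parent. Members lay within 0.5 of their parent on the log2 scale in 90 of 112 cases in the knockdown and 96 of 112 in heat, and all 42 with at least 600 counts did so in heat. Whatever the parent, 89 of 112 members lay within 0.5 of 0 in the knockdown and 94 in heat. Most parents also lay near 0, so these counts do not show that copies followed their parents.

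**Figure D4:**
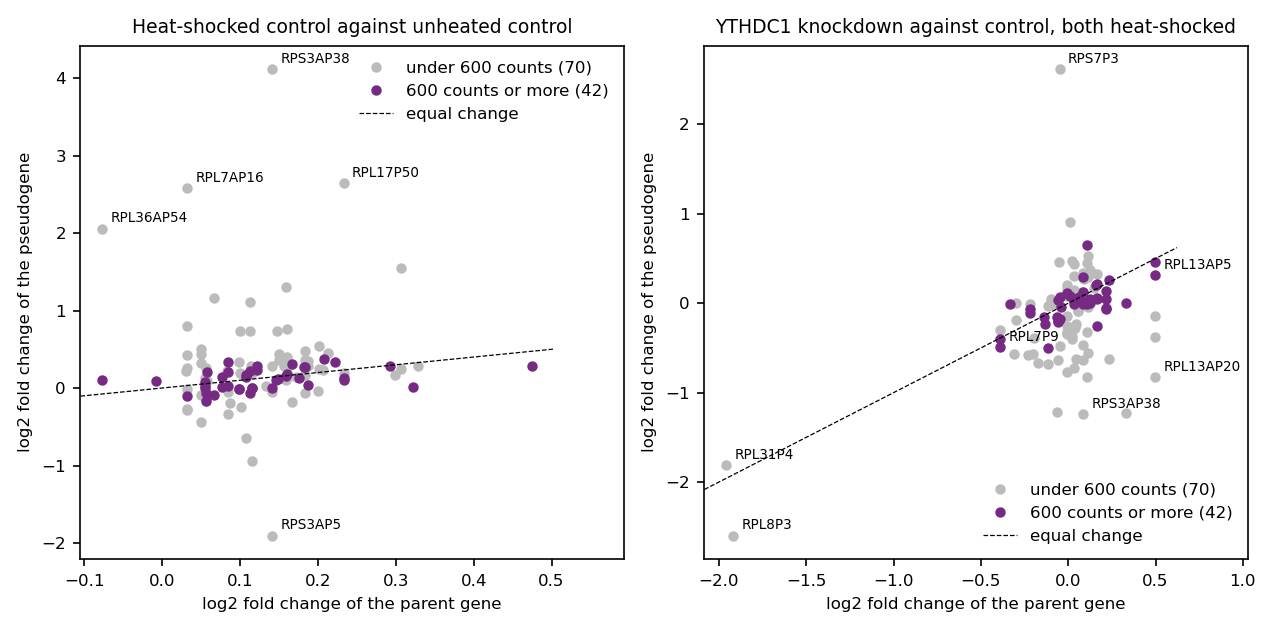
Log2 fold change of each member (vertical) against that of its parent gene (horizontal) in heat (left panel) and in the knockdown (right panel), with the line of equal change dashed and members with at least 600 counts in purple. RPL8P3 and RPL31P4 lie at the lower left of the right panel beside parents at -1.92 and -1.96, and in the left panel RPS3AP38, RPL7AP16, RPL17P50 and RPL36AP54 lie at 2.06 to 4.12 above parents at -0.08 to 0.23.

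Parents with 5 or more members show how copies of a gene differed. RPL7A had 8 copies with 68 to 1388 counts, and their log2 fold changes in heat ran from -0.29 to 2.58, with RPL7AP16 and RPL7AP62 called higher and RPL7A itself at 0.03. RPL13A had 5 copies with 70 to 6351 counts and changes in the knockdown of -0.83 to 0.47. RPS3A had 5 copies, from -1.91 for RPS3AP5 to 4.12 for RPS3AP38 in heat. RPL23A had 5 copies, of which RPL23AP7 was called, higher in the knockdown. RPL5 had 5, of which RPL5P4 was called higher in the knockdown against either control, and RPL5P23 against unheated controls, at 0.47. Against unheated controls the call of RPL5P4 was lost with DESeq2, with library size alone and with the replicate number as a block. That of RPL5P23 was lost with DESeq2, and both were lost when some single libraries were left out. RPL21 had 5 copies as well, with fewer counts in all. Of these RPL21P16 was called higher in the knockdown against unheated controls, at 0.73, a call that was lost with DESeq2 and without some single libraries.

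Taking host genes on the same strand in place of parents, 22 members had a host that was tested. In heat 14 of the 22 lay within 0.5 of their host on the log2 scale, in the knockdown 10 did, and against unheated controls 5 did. Pearson's r between the changes of member and host was 0.40 in heat and 0.03 in the knockdown, with Spearman's rho of 0.15 and 0.29. In the knockdown against unheated controls r was 0.06 and rho 0.01. In the knockdown 3 of 26 members inside a gene on the same strand were higher and 3 lower, beside 0 and 2 of 30 on the opposite strand and 3 and 8 of 53 outside other genes. The shares called either way were 23.1%, 6.67% and 20.8%, beside 56.2% of all tested genes. The difference between these classes was not tested.

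**Figure D5:**
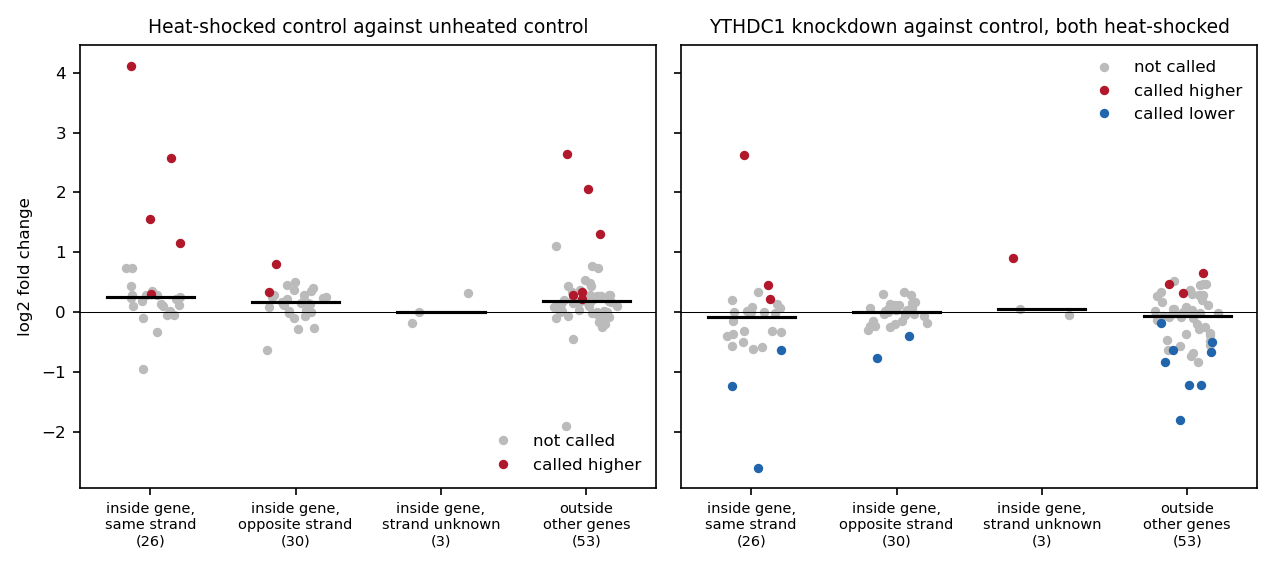
Log2 fold change of the members (vertical) by their place relative to other genes (horizontal, with the number of members), in heat (left panel) and in the knockdown against heat-shocked controls (right panel). Each point is a member, red where called higher and blue where called lower, and black bars are medians, which reach 0.24 in heat for members inside a gene on the same strand and lie between -0.08 and 0.05 in the knockdown.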

How the data were processed

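The authors deposited whole-number read counts per gene for 6 RNA-seq libraries in 1 table, not normalized, with gene start, end and length in columns of other units. Tools named in the submitters' processing notes, with no role or order, include HISAT2 2.2.1, featureCounts 2.0.2 and SAMtools 1.17, and the build is GRCh38 per the submitters' processing notes. Which annotation was counted, whether strand was used and how reads matching several places were treated is not given in the sources used here. Values for overlapping, antisense and near-identical genes, which includes every member, are therefore uncertain. The 4 methylated RNA immunoprecipitation samples were not analysed here.

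Symbols were found for 62666 Ensembl identifiers, and 521 had none. Positions are RefSeq positions on GRCh38, matched by symbol and chromosome. The test was edgeR 4.0.16 in R 4.3.3 (quasi-likelihood F test, robust, TMM scaling), with genes of at least 60 counts in total, all 6 libraries in 1 fit with 3 residual degrees of freedom, and Benjamini-Hochberg adjustment over the 16424 genes tested. Intervals are 95% intervals. An exact permutation test of 2 against 2 libraries cannot go below p = 0.333, so none was run.

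Libraries of a group were not copies of each other: their counts gave a chi-square per gene of 1.54 in unheated controls, 2.67 in heat-shocked controls and 3.54 in the knockdown. DESeq2 1.42.0, other filters and scalings, each library left out, and other member rules were alternatives. RPS19BP1 counted as a member, and the sum without the 2 highest members, were added after seeing the data. Named members are the 10 of highest count, the 6 largest called changes each way in each comparison, those beside the floor, and the 5 largest families; other called members and RPS3AP5 were named after their values were seen. The members, the gene lists and this rule were chosen with earlier results of these data known.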

Additional observations from a re-analysis of the deposited data

How the results depend on the processing

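With the replicate number as a block, 13 of 13 heat calls, 20 of 20 knockdown calls and 25 of 26 calls of the knockdown against unheated controls remained, so 18 members were higher in the last. Same-numbered libraries did not deviate together (correlations of -0.01, 0.03 and -0.03). The labels do not say whether they were prepared together, and these correlations cannot show it. With members that overlap another gene left out (51 remain), 6 were higher in heat, 2 higher and 7 lower in the knockdown against heat-shocked controls (median -0.066), and 7 higher and 4 lower against unheated controls. DESeq2 gave 4 higher and 5 lower, and 11 higher and 1 lower, in these knockdown comparisons. With library size alone the member median was 0.11 in heat and 0.074 in the knockdown against unheated controls, the summed CPM ratio (log2) was 0.040 and 0.070, beside 0.11 and 0.13 with TMM, and the share of heat calls that were higher, over all genes, was 36.0% in place of 46.6%. With a floor of 30 counts the median in the knockdown against heat-shocked controls was -0.073. Leaving out 1 library at a time gave 7 to 17 higher, 0 to 1 lower and a median of 0.13 to 0.21 in heat. Against heat-shocked controls it gave 5 to 11 higher, 10 to 14 lower and a median of -0.10 to -0.018, and against unheated controls 12 to 20 higher, 4 to 7 lower and a median of 0.10 to 0.17. Among abundant members that were not called, leaving out 1 library turned the sign. In heat the log2 fold changes then ran from -0.050 to 0.24 for RPL36AP37, -0.080 to 0.091 for RPL22P1 (-0.062 with library size alone), -0.20 to 0.14 for RPL3P4, -0.084 to 0.077 for RPS2P46 and -0.18 to 0.19 for RPL10P9. In the knockdown against heat-shocked controls they ran from -0.015 to 0.14 for RPS2P5, -0.13 to 0.16 for RPL36AP37, -0.13 to 0.21 for RPL3P4, -0.42 to 0.040 for RPS11P5, -0.024 to 0.14 for RPS2P46 and -0.24 to 0.13 for RPL10P9. The cause was not tested. Depth limits members under 120 counts most.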

Other observations

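Pseudogenes of other gene families with many processed copies, taken by the same pattern and floor, numbered 94. Of these 18 rose and 1 fell in heat-shocked controls against unheated controls, with a median log2 fold change of 0.18. That was 20.2% called either way, beside 45.0% of all tested genes. In the knockdown against heat-shocked controls 7 rose and 21 fell, with a median of -0.25, beside -0.02 for the pseudogenes of ribosomal proteins. There 29.8% were called either way, beside 56.2% of all tested genes. The difference between these groups of pseudogenes was not tested. The 10 pseudogenes of RPSA, RPLP0, RPLP1 and RPLP2, ribosomal protein genes whose symbols the choice of members did not take, had 0 calls in edgeR and 0 in DESeq2 in these comparisons, with 0 at an unadjusted edgeR p under 0.05 in heat and 1 in the knockdown. Their log2 fold changes ran from -0.41 to 0.59 in heat and from -0.79 to 0.49 in the knockdown.

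RPS19BP1, the protein-coding gene whose symbol matched the pattern, encodes a binding partner of the small-subunit protein RPS19. It stood at 132 and 122 CPM in the knockdown, 94.3 and 96.3 CPM in the heat-shocked controls and 85.0 and 81.4 CPM in unheated controls, with no overlap between groups. Its log2 fold change was 0.41 ± 0.05 in the knockdown against heat-shocked controls and 0.20 ± 0.06 in heat (edgeR adjusted p = 5.6e-07 and 0.00555).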
